A study of Mus musculus with 108 samples.

Results

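The globin genes and Klf1 were examined as 3 stretches of the mouse genome, each made of the gene bodies and 100 kb on either side. The alpha-globin window (chr11:32176400-32397298, mm10) holds the embryonic gene Hba-x and the adult genes Hba-a1 and Hba-a2. The beta-globin window (chr7:103712524-103953216) holds the embryonic genes Hbb-y and Hbb-bh1 and the adult genes Hbb-bs and Hbb-bt. The Klf1 window (chr8:84801928-85005291) holds the gene of an erythroid transcription factor. These 8 member genes are among 21951 protein-coding genes of the annotation. Sorted fragments of the windows formed 74 sites of 76779 in the whole data set, and 1852 distinct fragments of 1177237.

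Fragments of open chromatin were cloned in front of a minimal Hsp68 promoter and the Venus-YFP gene and placed at the Hprt locus of HM-1 mouse embryonic stem cells, which were differentiated in culture towards blood. Cells were sorted at 5 stages, which were ES cells, FLK1+ hemangioblast (HB), KIT+ TIE2+ CD41- first stage hemogenic endothelium (HE1), KIT+ TIE2+ CD41+ second stage hemogenic endothelium (HE2) and KIT+ TIE2- CD41+ hematopoietic progenitors (HP). All groups come from 1 ES line with the reporter at 1 locus, so a fragment was read away from its own chromosomal surroundings. Gates on YFP split each stage, with High, Medium, Low and Negative for replicates 1 to 4 and Medium/High, Low and Negative for replicate 5, giving 95 sorted libraries, beside 5 lists of the entry plasmid pDONR, 5 of the reporter plasmid pSKB and 3 controls from unmodified HM-1 cells. Each sorted list names distinct fragments without read numbers, so what was measured is whether a fragment was seen, not how often.

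Hemoglobin is built from alpha-like and beta-like chains whose genes switch from embryonic to adult forms during erythroid development. The alpha-globin genes are served by enhancers upstream of the cluster, several of them inside introns of the neighbouring gene Nprl3, and the beta-globin genes by the locus control region, a set of hypersensitive sites upstream of Hbb-y. GATA1, the NF-E2 complex and KLF1 bind such elements in red cell precursors, and KLF1 itself is a zinc finger protein that recognises CACCC boxes in globin and other erythroid genes.

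Lists ranged from 504 to 131091 fragments. Replicates 1 and 2 were deep (15627 to 131091 fragments a library) and replicates 3, 4 and 5 were shallow (504 to 20729), so a rate from a shallow library can rest on 1 or 2 fragments. In HE1, the Negative library of replicate 3 and the Low library of replicate 4 shared 83.0% of the smaller list, and the Negative library of replicate 1 and the Medium library of replicate 2 shared 78.5%. The median over pairs of libraries was 2.43% to 4.07% in the 5 stages. Libraries of replicate 4 also shared much within a stage. Their Negative and Low lists shared 51.2% of the smaller list in HE1, 48.8% in HE2 and 37.4% in HP. Their Low and Medium lists shared 49.3% in HE2 and 41.5% in both HB and ES. In ES, Medium and High of replicate 1 shared 38.3%. The positive and Negative sets of replicate 4 thus overlap in HE1, HE2 and HP. Without the 4 libraries of the HE1 pairs named first, no window comparison that uses HE1 changed its call. Comparisons of other stages hold none of these libraries and could not change. The values without them are given beside the HB to HE1 result. No gate was set on an erythroid marker, and no RNA was measured in these files, so nothing here reads globin expression.

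Sequences of 7 of the sites described below are shown first. They are read from GRCm38 on the plus strand, whole where a site is at most 300 bp and otherwise as its central 300 bp. Capitals mark matches to the GATA motif (the letters GATA with A or T before them and A or G after), the NF-E2 core (TGANTCA) or the KLF1 motif (CCNCNCCC) on either strand. The first 4 belong to the alpha-globin window, at chr11:32238420-32238719, chr11:32245666-32245965, chr11:32265200-32265360 and chr11:32276128-32276371, then 2 of the beta-globin window at chr7:103860996-103861252 and chr7:103909960-103910259, and 1 inside Klf1 at chr8:84903378-84903651.
Nprl3 intron, 37.8 kb upstream of Hba-x: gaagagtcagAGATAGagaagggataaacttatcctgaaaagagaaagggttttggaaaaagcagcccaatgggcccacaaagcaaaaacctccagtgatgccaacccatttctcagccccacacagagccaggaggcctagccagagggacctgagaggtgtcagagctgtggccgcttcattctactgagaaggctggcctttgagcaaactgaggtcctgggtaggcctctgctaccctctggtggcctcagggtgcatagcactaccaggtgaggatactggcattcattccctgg
Nprl3 intron, 30.6 kb upstream of Hba-x: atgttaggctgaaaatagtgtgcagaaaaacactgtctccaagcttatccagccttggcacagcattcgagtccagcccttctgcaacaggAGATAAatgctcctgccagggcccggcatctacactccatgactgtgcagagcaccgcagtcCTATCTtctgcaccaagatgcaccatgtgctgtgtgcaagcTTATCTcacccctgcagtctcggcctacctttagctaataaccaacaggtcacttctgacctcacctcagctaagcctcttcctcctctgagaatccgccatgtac
Nprl3 intron, 11.1 kb upstream of Hba-x: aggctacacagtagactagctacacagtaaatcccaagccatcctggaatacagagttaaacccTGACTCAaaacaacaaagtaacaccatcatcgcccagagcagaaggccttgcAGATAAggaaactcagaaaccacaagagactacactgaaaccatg
Hba-x promoter: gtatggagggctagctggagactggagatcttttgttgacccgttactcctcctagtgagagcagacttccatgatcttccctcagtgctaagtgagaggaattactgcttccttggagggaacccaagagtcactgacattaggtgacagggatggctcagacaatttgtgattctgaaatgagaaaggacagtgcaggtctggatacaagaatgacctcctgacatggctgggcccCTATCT
Beta cluster, 7.9 kb upstream of Hbb-y: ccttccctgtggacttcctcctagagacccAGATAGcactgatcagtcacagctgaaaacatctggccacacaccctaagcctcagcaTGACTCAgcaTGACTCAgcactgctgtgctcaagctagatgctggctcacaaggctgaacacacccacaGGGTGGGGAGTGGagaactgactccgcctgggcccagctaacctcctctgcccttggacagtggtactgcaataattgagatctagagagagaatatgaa
Beta cluster, 56.9 kb upstream of Hbb-y: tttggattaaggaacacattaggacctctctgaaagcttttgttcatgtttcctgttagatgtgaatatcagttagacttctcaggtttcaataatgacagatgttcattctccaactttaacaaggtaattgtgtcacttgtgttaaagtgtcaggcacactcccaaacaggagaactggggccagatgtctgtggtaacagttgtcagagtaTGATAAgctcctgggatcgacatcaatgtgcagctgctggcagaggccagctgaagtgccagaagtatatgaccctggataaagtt
Klf1 exon and intron: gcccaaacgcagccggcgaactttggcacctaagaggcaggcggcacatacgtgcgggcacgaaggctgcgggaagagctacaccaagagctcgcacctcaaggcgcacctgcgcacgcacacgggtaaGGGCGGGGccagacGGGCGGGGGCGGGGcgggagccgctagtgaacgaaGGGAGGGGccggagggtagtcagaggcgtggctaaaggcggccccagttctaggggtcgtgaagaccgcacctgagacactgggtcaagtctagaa

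Within these letters the site 30.6 kb upstream of Hba-x held 3 GATA matches. The site 11.1 kb upstream held 1 GATA and 1 NF-E2 match. The site 7.9 kb upstream of Hbb-y was the only one of the printed sequences with all 3 kinds, with 1 GATA match, 2 NF-E2 cores and 2 KLF1 matches. The Klf1 sequence held 5 KLF1 matches and neither of the other motifs. These 5 matches are G-rich stretches, none with the letters CACCC on either strand. Over all 58911 distal sites with sequence, the central 300 bp held a GATA match in 41.9%, an NF-E2 core in 16.1% and a KLF1 match in 34.3%. In the 17849 promoter sites these shares were 16.6%, 5.20% and 64.3%. GATA matches were present in 14 of 33 alpha-globin sites, in 4 of 5 beta-globin sites and in 6 of 36 Klf1 sites. NF-E2 cores were in 4, 2 and 2 of these sites, and KLF1 matches in 10, 3 and 25. These counts mix distal and promoter sites, and over all 76760 sites the shares were 36.0%, 13.6% and 41.3%. A match of letters is not a bound site.

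The globin genes themselves were almost absent from the sorted libraries. No sorted fragment overlapped the body of Hba-a1, Hba-a2, Hbb-bt, Hbb-bs, Hbb-bh1 or Hbb-y, also with 1 kb on each side. Hba-x had 2 distinct fragments within 1 kb, each listed once, both in YFP-positive HE2 libraries. The first lay upstream of the start (chr11:32276128-32276371, in a Low library) and the other inside the gene (chr11:32276481-32276910, in a Medium or High library). Klf1 had 81 distinct fragments in its body, listed 162 times, 126 times in positive and 36 times in Negative libraries.

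The plasmid lists held few fragments over the adult globin genes to begin with. All 5 pDONR lists together had 3 distinct fragments in Hba-a1 and 1 in Hba-a2, and the pSKB lists had 1 and 0. Hbb-bt had 13 and 2, Hbb-bs 16 and 5, Hbb-bh1 16 and 4 and Hbb-y 7 and 2 in pDONR and pSKB. Hba-x had 130 in pDONR and 25 in pSKB, and Klf1 had 1192 and 348. Per the study's methods, reads with low mapping quality were dropped. Hba-a1 and Hba-a2 are near-identical copies, as are Hbb-bt and Hbb-bs, so fragments inside them can be lost at that step and their counts are uncertain.

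In the alpha-globin window 22 distal and 11 promoter sites were found, with 373 and 939 listings. A listing is 1 fragment in 1 library. The most frequent site was the promoter of Snrnp25, which encodes a minor spliceosome protein, with 496 listings in 20 of 25 positive and 18 of 25 Negative sets. A positive set is the union of the fragments of all YFP-positive gates of 1 stage and replicate, and a Negative set is the Negative library. The promoters of Rhbdf1 and Nprl3 had 167 and 148 listings, and the distal site in Il9r, the interleukin 9 receptor gene, had 112. These 4 sites made up most listings of the window.

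Nprl3 held 6 distal sites with 80 listings in all, 14 of them Negative. The site 37.8 kb upstream of Hba-x (chr11:32238191-32238947, intronic) accounted for 59 listings and 28 distinct fragments. It was seen at all 5 stages, in 16 positive and 9 Negative sets. Corrected for the fragments of each stage, it had 2.00, 1.93, 2.71, 3.11 and 2.00 distinct positive fragments per 100000 from ES to HP. Negative sets gave 3.44, 1.15, 2.33, 2.69 and 3.89 per 100000. Its positive rates thus differed little between stages and lay within the range of its Negative rates.

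The 5 other Nprl3 sites had no ES or HB fragment, and 4 of them had no Negative fragment. Each was sparse, so lack of a fragment at a stage or in Negative sets does not show absence there. The intronic site 30.6 kb upstream of Hba-x (chr11:32245658-32245972) had 5 distinct fragments and 8 listings. Replicate 1 of HE2 held 2 of the fragments, replicate 2 of HE2 1, replicate 1 of HP 3 and replicate 2 of HP 2. No set of another stage and no Negative set held any, and 7 of its 8 listings were in Medium or High gates. Its positive rate was 0.622 per 100000 in HE2 and 2.00 in HP. A rate of 0 allows up to 1.5 per 100000 in ES, 1.16 in HB and 0.740 in HE1 at the depth of the positive sets, and up to 4.04 and 3.89 in the Negative sets of HE2 and HP, so the HE2 value itself would not have been detectable in ES, HB or HE1.

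The site 11.1 kb upstream of Hba-x (chr11:32265200-32265360), 2427 bp from the start of Nprl3, had 4 distinct fragments, each listed once. Replicate 1 of HE2 held 1, replicate 2 of HE2 2 and replicate 2 of HP 1. The site 39.5 kb upstream (chr11:32236802-32237038), over an exon, was 1 fragment listed 3 times, in HE2 and HP of replicate 1. The site 39.0 kb upstream (chr11:32237190-32237611), also over a coding exon, had 2 HE2 fragments in 1 set. The site 32.6 kb upstream (chr11:32243536-32243964) had 3 positive and 1 Negative fragment, in HE1 only.

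These counts were read against all distal sites of the genome. Of 26275 distal sites with a fragment in at least 3 positive sets, 4.53% had all of them in HE2 or HP, against 2 of 10 in the alpha-globin, 1 of 4 in the beta-globin and 0 of 12 in the Klf1 window. No Negative set was found for 12.7% of those sites, against 3 of 10, 0 of 4 and 1 of 12. The 2 alpha-globin sites in the first count are those 30.6 and 11.1 kb upstream of Hba-x. Nprl3 sites seen in fewer than 3 positive sets do not enter these counts, and no genome share was worked out for them. Both patterns were chosen after the values had been seen and are given as descriptions.

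**Figure D1:**
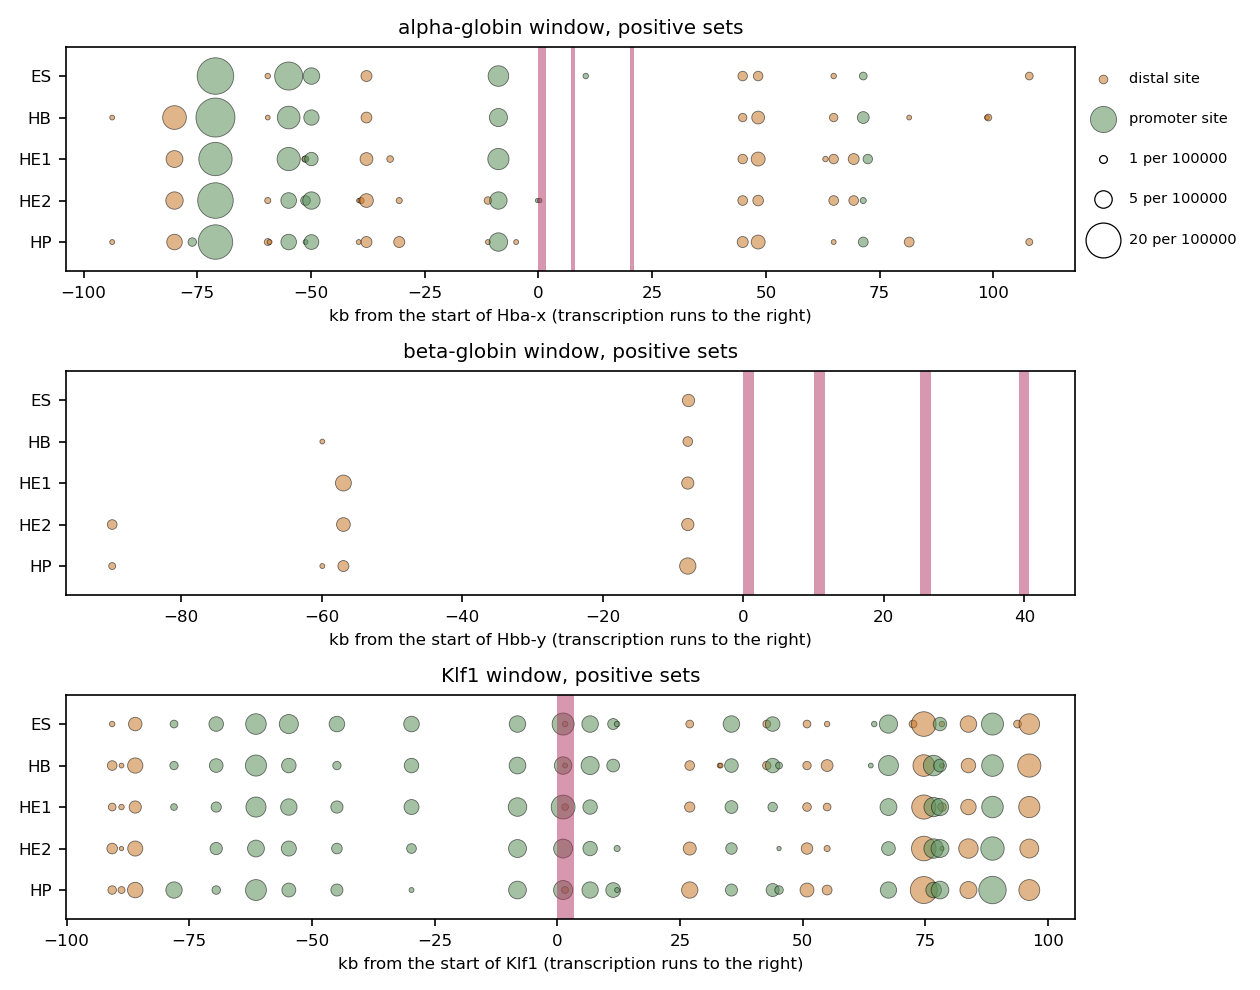
Distinct positive fragments per 100000 listed at each site (circle area) by distance in kb from the start of Hba-x, Hbb-y or Klf1 (x axis) and by stage (rows), with distal sites in orange, promoter sites in green and member genes as bars. The alpha-globin sites 30.6 and 11.1 kb upstream of Hba-x appear in HE2 and HP, the site 7.9 kb upstream of Hbb-y at every stage, and no circle lies on an adult globin gene.

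The plasmid lists also differed between stages at these sites. Plasmid values are distinct fragments per 1000000 listed, with 1 list per stage and vector and so no replicate error. At the site 30.6 kb upstream of Hba-x, pDONR had 0.530, 0, 1.47, 1.57 and 8.33 from ES to HP. The pSKB lists had 0 in ES and HB, then 2.89, 3.6 and 9.21. At the site 11.1 kb upstream, pDONR rose from 0 in ES through 0.643, 1.36 and 3.45 to 6.28 in HP, and pSKB from 0 through 0.512, 1.73 and 1.8 to 4.6. The ES and HB plasmid lists held few or no fragments of these 2 sites, and no sorted fragment of them was found at these stages. The sources do not say whether cells of a stage carried only the plasmids of that stage's list. In HE1, also without a sorted fragment, the pDONR share of the site 30.6 kb upstream was close to that of HE2. At the site 11.1 kb upstream it was 1.36 in HE1 beside 3.45 in HE2. Fewer cloned fragments and lack of reporter activity cannot be told apart in ES and HB. A 0 in HE1 does not show a lack of activity either, since the HE2 rate of the site 30.6 kb upstream lay below the HE1 limit of 0.740 per 100000.

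At the Nprl3 site 37.8 kb upstream, by contrast, pDONR already had 7.42 per 1000000 in ES and 9.06 in HP, and pSKB 7.67 and 6.91. The Il9r site had 3.53 per 1000000 in the ES list of pDONR and 37.4 in that of HP, and no sorted fragment in any ES set, with 24 positive and 9 Negative distinct fragments in HB. Around the start of Hba-x the counts were small, with pDONR fragments over the promoter site in 1, 0, 3, 4 and 14 instances from ES to HP and over the site inside the gene in 3, 3, 11, 10 and 40.

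**Figure D2:**
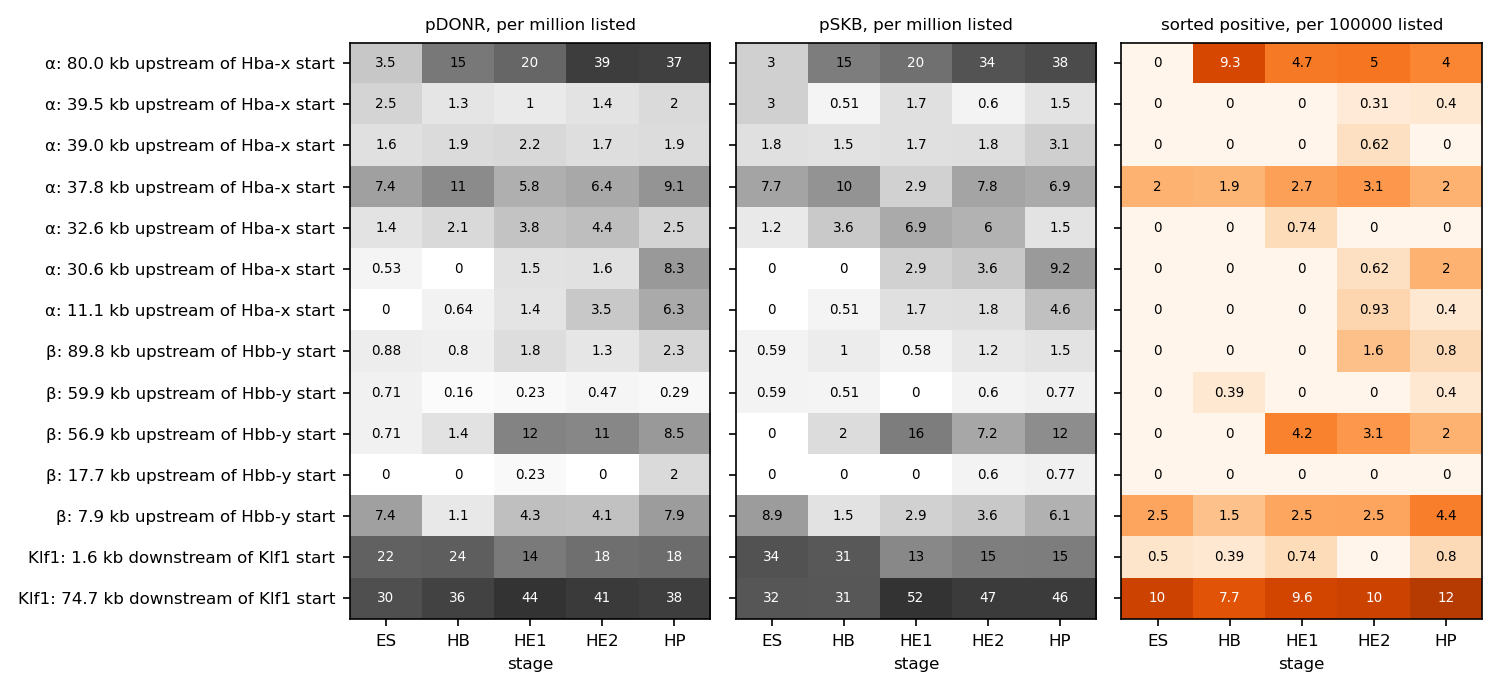
Distal sites chosen by the rule for named sites, one per row, with the stages in columns: distinct fragments per 1000000 listed in the pDONR (left) and pSKB (middle) lists and distinct positive sorted fragments per 100000 listed (right), printed in each cell and shaded on a log2(value + 1) scale per panel. The sites 30.6 and 11.1 kb upstream of Hba-x darken from ES to HP in both plasmids and hold sorted fragments in HE2 and HP, while the site 37.8 kb upstream has values at every stage in all 3 panels.

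Over the whole alpha-globin window the plasmid share also grew. In pDONR it was 3.41, 3.61, 4.18, 4.69 and 5.19 distinct fragments per 10000 listed from ES to HP, and in pSKB 3.35, 3.79, 4.52, 4.76 and 5.36. The sorted positive fragments did not follow this order. Pooled over replicates they came to 5.49 per 10000 in ES (95% exact binomial interval 4.52 to 6.62), 6.36 in HB (5.43 to 7.41), 5.70 in HE1 (4.99 to 6.48), 5.54 in HE2 (4.75 to 6.41) and 5.47 in HP (4.59 to 6.46). Such intervals cover counting error only. Sorted lists were restricted to fragments in accessible regions, whereas plasmid lists were not, so only the course over stages, not the level, can be set side by side.

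**Figure D3:**
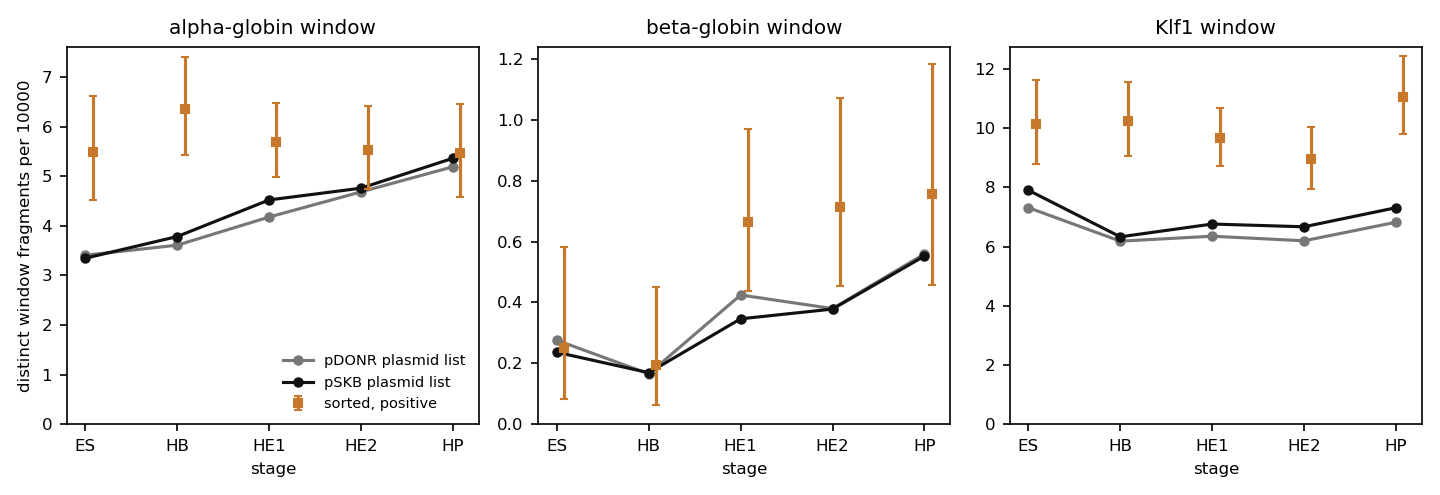
Distinct window fragments per 10000 listed (y axis) by stage in the pDONR (grey) and pSKB (black) lists and in the positive sorted fragments pooled over replicates (orange squares, with 95% exact binomial intervals) for the 3 windows. The alpha-globin plasmid share increases at each stage from 3.41 to 5.19 in pDONR, and the sorted values between 5.47 and 6.36 have overlapping intervals.

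The rate of a window, in distinct fragments per 10000 of a set, was compared over the 5 replicates by exact two-sided permutation tests. In HB, positive sets of the alpha-globin window gave 5.91, 6.15, 7.75, 10.2 and 10.8 per 10000 in replicates 1 to 5, and Negative sets 4.69, 4.29, 3.90, 5.76 and 0. The 2 groups did not overlap. The means were 8.17 ± 2.26 and 3.73 ± 2.20 (SD, n = 5), a difference of 4.44 (exact permutation p = 0.00794, adjusted over the 5 stages 0.0397), with the positive set higher in 5 of 5 replicates. Samples with the same replicate number deviated together in this comparison, and with the number kept as a block the exact sign-flip p was 0.0625, adjusted 0.208, the smallest that 5 pairs allow being 0.0625.

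The values rest on few fragments in the shallow replicates. Replicates 4 and 5 held 6 and 2 positive and 1 and 0 Negative window fragments. Pooled, the Negative rate was 4.37 per 10000 (95% exact binomial interval 3.09 to 6.0), and this interval overlapped that of the positive fragments. With 50 kb in place of 100 kb on each side, which leaves the globin genes and Nprl3 but removes Snrnp25 and Rhbdf1, the difference was 0.459 (exact permutation p = 0.381).

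Site by site, the Snrnp25 promoter gave the largest part of the HB difference. Its positive rate was 3.93 ± 2.07 and its Negative rate 2.26 ± 2.12 per 10000 (SD, n = 5), higher in 5 of 5 replicates. The Rhbdf1 promoter, of a gene for an inactive rhomboid protease, followed with 1.71 ± 2.15 and 0.181 ± 0.248. Without replicate 5 the 2 differences of means were 0.740 and 0.565. A promoter site of Sh3pxd2b had 0.550 ± 0.722 and no Negative fragment, with a difference of 0.262 without replicate 4. The Nprl3 site 37.8 kb upstream of Hba-x had 0.459 ± 0.701 and 0.0427 ± 0.0954, higher in 3 of 5 replicates, and its positive mean was 0.149 without replicate 4, which held 1 fragment of it. None of these sites passed the test across all sites.

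**Figure D4:**
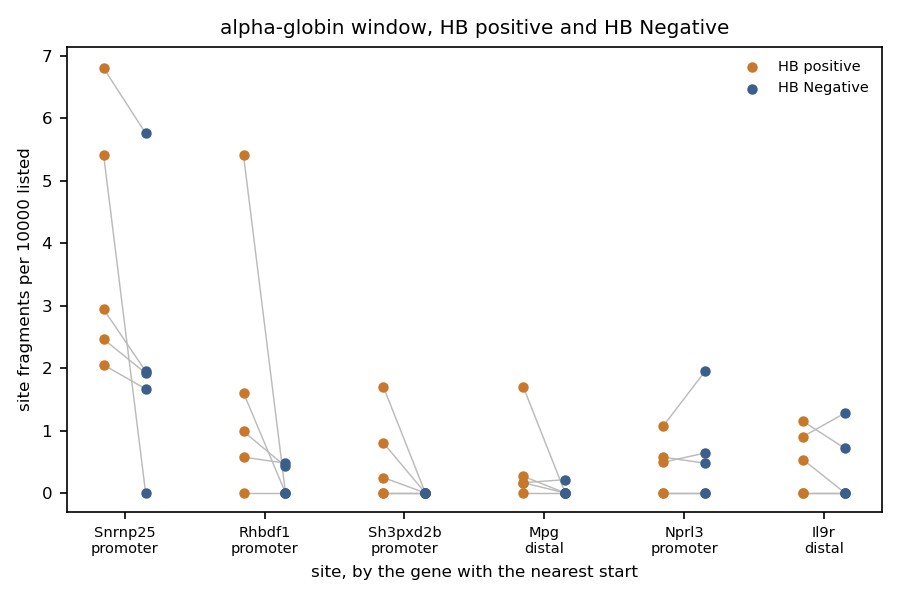
Fragments of a site per 10000 listed in HB positive (orange) and HB Negative (blue) sets of the alpha-globin window (y axis), for the 6 sites with the largest difference of means, with 1 point per replicate and lines joining equal replicate numbers, where Mpg distal is the Nprl3 site 37.8 kb upstream of Hba-x. The Snrnp25 promoter is higher in HB positive than in HB Negative in each replicate, and its 2 highest positive points, at 6.81 and 5.41, belong to the shallow replicates 4 and 5.

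Between stages, alpha-globin positive rates were 5.70, 5.71, 5.48, 1.94 and 0 in ES and 5.92, 5.68, 2.59, 4.52 and 0 in HE1. The rate rose from ES to HB by 4.40 (exact permutation adjusted p = 0.0397), with no overlap and in 5 of 5 replicates. It fell from HB to HE1 by 4.43 (exact permutation adjusted p = 0.0397), with overlapping groups, and without the 4 HE1 libraries by 5.36 (exact permutation adjusted p = 0.0397). Replicates 1 and 2, which hold most fragments, lay between 5.68 and 6.15 at all 3 stages. Samples of equal number deviated together in the comparison of ES and HB, and the blocked exact sign-flip p was 0.0625, adjusted 0.3125. With 50 kb on each side the differences were 0.160 and 0.0410, the second with the other sign.

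No other alpha-globin comparison passed. From HE1 to HE2 the positive rate rose by 3.57 (exact permutation p = 0.0476, adjusted 0.0794), in 3 of 5 replicates. The HE2 mean was 7.31 ± 2.89 (SD, n = 5), beside 8.17 ± 2.26 in HB. HE2 rates were 5.47, 5.17, 7.20, 12.3 and 6.44, where replicate 4 held 3 window fragments. HE2 to HP gave -2.05 and ES to HP 1.49 (exact permutation adjusted p = 0.208 and 0.333). Positive minus Negative was -2.70, -2.17 and -2.46 for ES, HE1 and HE2 and 1.5 for HP, with adjusted exact permutation p of 0.413 in each, and high minus low gates gave adjusted p from 0.804 to 0.944. The signs of these means rest on shallow replicates. The ES mean was -0.54 without replicate 5, whose Negative set held 1 window fragment of 882, the HE1 mean -0.82 without replicate 4 and the HP mean 0.208 without replicate 5. Pooled over replicates, ES positive fragments came to 5.49 per 10000 beside 5.04 for Negative ones, and HP positive fragments to 5.47 beside 5.84, both with the opposite sign to the means. The HE1 difference was also negative without the 4 HE1 libraries and did not pass. High here means Medium, High and Medium/High together.

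**Figure D5:**
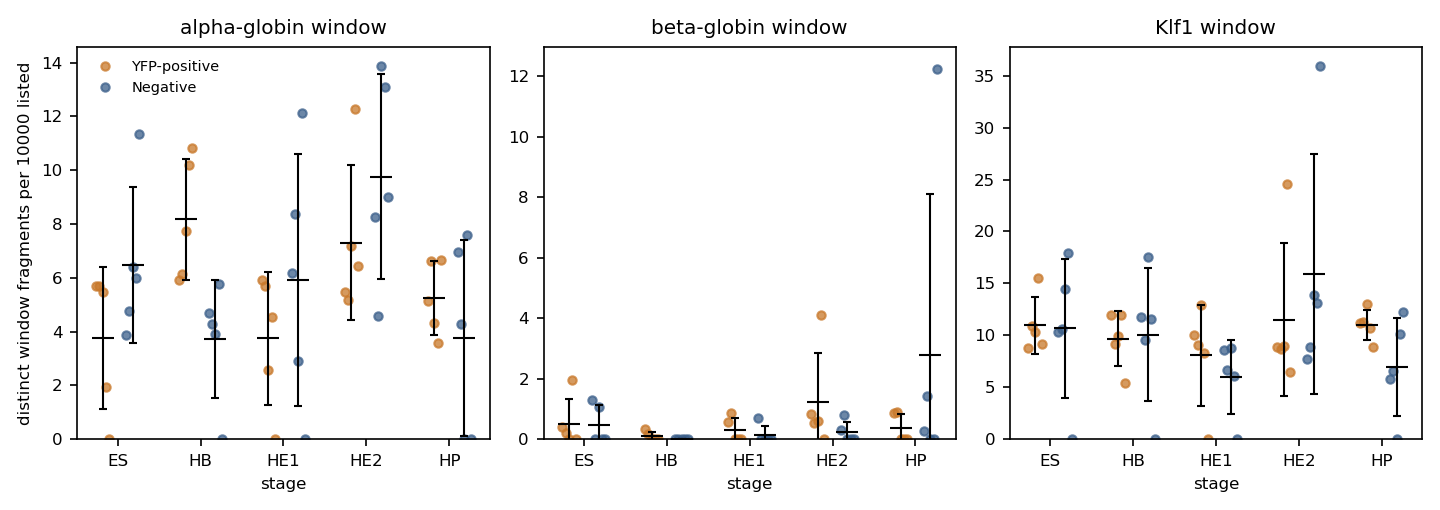
Distinct window fragments per 10000 listed (y axis) in positive (orange) and Negative (blue) sets by stage, with 1 point per replicate and black bars for the mean ± SD (n = 5). In the alpha-globin window the HB positive points, from 5.91 to 10.8, lie above all HB Negative points, and most beta-globin points lie at or near 0.

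The beta-globin window was sparse. It held 5 distal sites, no promoter site, 62 distinct fragments and 127 listings, none of them over a globin gene. The site 7.9 kb upstream of Hbb-y, in the stretch of the locus control region (chr7:103860996-103861252, intergenic), had 26 distinct fragments and 58 listings in 12 positive and 6 Negative sets, at all 5 stages. Per 100000, its positive rate was 2.50, 1.54, 2.47, 2.49 and 4.39 from ES to HP, and its Negative rate 4.58, 0, 1.17, 2.69 and 1.30. The gates of its listings were uneven. Medium or High gates held 46, the Low gate 3 and the Negative gate 9, or 79.3%, 5.17% and 15.5%, where all listings of the data set divided into 57.3%, 19.8% and 22.9%. The 58 listings repeat 26 distinct fragments, mostly in replicates 1 and 2, and are not independent counts. How far such shares vary between sites of this size was not measured.

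In HE2 the high sets averaged 1.75 ± 3.54 and the low sets 0.0240 ± 0.0538 fragments of this site per 10000 (SD, n = 5), and limma over all 14890 sites gave a log2 difference of 0.77 ± 0.39 (SE), unadjusted p = 0.0470 and adjusted p = 0.998. The high mean is carried by replicate 4, whose high set gave 8.08 per 10000 for the whole window, which was 1 fragment of 1238. The plasmids held this site at every stage, with 7.42, 1.12, 4.30, 4.08 and 7.89 per 1000000 from ES to HP in pDONR. Sorted and cloned fragments both had their lowest value in HB.

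The site 56.9 kb upstream of Hbb-y (chr7:103909577-103910642), among olfactory receptor genes, had 27 distinct fragments and 55 listings, in HE1, HE2 and HP only. Its positive rate was 4.19, 3.11 and 2.00 per 100000 at these stages, and its Negative rate 4.08, 2.69 and 3.89. Replicates 1 and 2 held all of it. In pDONR it went from 0.707 per 1000000 in ES and 1.45 in HB to 12.2 in HE1, 11.5 in HE2 and 8.47 in HP. Of 10479 distal sites seen in at least 10 of the 50 sets, 27.3% had no ES set and 8.62% neither an ES nor an HB set, against 1 of 6 and 0 of 6 in the alpha-globin window, where the Il9r site was the one without ES. The shares were 1 of 2 and 1 of 2 in the beta-globin and 0 of 9 and 0 of 9 in the Klf1 window.

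The 3 remaining beta-globin sites had 1, 5 and 8 listings. The one 17.7 kb upstream of Hbb-y was a single HP Negative fragment. The one 89.8 kb upstream had 5 HE2 and 2 HP positive fragments and 1 HP Negative one. The one 59.9 kb upstream had 1 positive fragment each in HB and HP and 1 Negative one in ES.

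Pooled, positive fragments of the beta-globin window came to 0.25 per 10000 in ES (95% exact binomial interval 0.0811 to 0.583), 0.193 in HB (0.0626 to 0.450), 0.666 in HE1 (0.439 to 0.969), 0.716 in HE2 (0.454 to 1.07) and 0.758 in HP (0.457 to 1.18). The pSKB lists had 0.236, 0.169, 0.346, 0.378 and 0.553. Both were lower in ES and HB than in the 3 later stages. Over replicates no difference passed, where the positive sets of replicates 3 to 5 held 0 or 1 fragment. From ES to HP the means were 0.508 ± 0.820 and 0.356 ± 0.487 (SD, n = 5, exact permutation adjusted p = 0.802), and adjusted p was 0.496 or more in all 15 beta-globin comparisons.

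The Klf1 window was the richest, with 16 distal and 20 promoter sites and 2210 listings. Most lay at neighbouring genes. The distal site 2079 bp from the start of Junb, an AP-1 factor gene, had 209 listings, the Hook2 promoter 208, the Gcdh promoter 125 and the Dnase2a promoter 111. Dnase2a encodes the nuclease that breaks down the DNA of expelled erythroblast nuclei in macrophages, and Gcdh a glutaryl-CoA dehydrogenase. The plasmid share of the window was flat, between 6.18 and 7.32 per 10000 in pDONR and between 6.33 and 7.91 in pSKB.

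Klf1 itself carried 1 promoter-class site, centred 1209 bp downstream of its start in a coding exon (chr8:84902634-84903641), with 76 distinct fragments and 146 listings in 11 positive and 11 Negative sets. Distal fragments merged separately into an overlapping site (chr8:84903378-84903651) with 5 distinct fragments and 16 listings. The larger site had 7.99, 5.01, 9.37, 5.91 and 5.99 distinct positive fragments per 100000 from ES to HP, and 3.44, 5.75, 9.91, 5.38 and 2.59 in Negative sets. Its listings divided into 55.5% Medium or High, 23.3% Low and 21.2% Negative, close to the division of all listings. It was thus present at every stage, ES included, and in all kinds of gate.

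Fragments over Klf1 and 5 kb on each side were compared in a table of all protein-coding genes. Of the member genes only Klf1 had enough fragments to be tested. In HE1 its positive rate was 2.39 ± 3.06 and its Negative rate 1.14 ± 1.22 per 10000 (SD, n = 5), with a limma log2 difference of 0.49 ± 0.66 (SE, adjusted p = 1.00). Between ES and HP it was 1.74 ± 2.36 and 0.449 ± 0.634, a log2 difference of -0.68 ± 0.54 (limma adjusted p = 0.988). No gene was called in the positive against Negative comparisons (0%) except 1 of 11948 in HE2 (0.00837%), and 12 of 13610 between ES and HP (0.0882%). Of 40 other erythroid genes, 23 to 27 could be tested and none was called in any of the 6 comparisons. Higher in positive sets were 14 of 26 in ES, 14 of 25 in HB, 13 of 24 in HE1, 18 of 23 in HE2 and 15 of 23 in HP, beside 59.2%, 62.9%, 55.1%, 70.4% and 50.5% of all genes. The median log2 differences were 0.02, 0.05, 0.02, 0.25 and 0.18, beside 0.07, 0.09, 0.02, 0.14 and 0.00 over all genes. Between ES and HP 9 of 27 were higher, with a median of -0.08, beside 38.5% of all genes and a median of -0.08.

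In HP the Klf1 window differed between gates. The high sets gave 11.04, 11.2, 19.6, 11.8 and 13.4 per 10000 in replicates 1 to 5 and the low sets 10.7, 10.9, 0, 7.10 and 5.1, and the groups did not overlap. The means were 13.4 ± 3.59 and 6.75 ± 4.50 (SD, n = 5), a difference of 6.66 (exact permutation p = 0.00794, adjusted p = 0.0397), higher in 5 of 5 replicates. Replicates 1 and 2, with 186 and 58 fragments in the high and 37 and 17 in the low sets, differed by little, and replicates 3, 4 and 5 held 3, 2 and 4 against 0, 1 and 1. Without replicate 3 the difference was 3.42. With 50 kb on each side it was -0.327 (exact permutation p = 0.841). The Junb distal site contributed 1.65 of it and was higher in 2 of 5 replicates, and the sites over Klf1 were not among the 3 leading ones.

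HP positive sets of the Klf1 window, at 11.2, 11.3, 13.0, 10.7 and 8.90 per 10000, were compared with Negative sets at 5.83, 6.54, 0, 10.1 and 12.2. The difference of 4.06 did not pass (exact permutation p = 0.0952, adjusted 0.476). Pooled, these fragments came to 11.1 per 10000 (95% exact binomial interval 9.79 to 12.4) in positive and 6.23 (4.59 to 8.26) in Negative cells. These intervals cover counting error only and leave out the spread between replicates. Replicates 1 and 2 held 216 and 75 positive and 21 and 23 Negative window fragments, and replicate 5 went the other way.

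Of the 45 window comparisons, 4 passed an adjusted p of 0.05 within their family of 5, and none when p-values were adjusted over all 45 together (lowest 0.119). Single sites were fitted with limma over all sites of the genome, 7852 to 24121 per comparison, with 15 to 36 window sites among them. No window site was called in any of the 15 comparisons, and over all sites the called share was 0% except for 0.00557% between ES and HB. At an unadjusted p under 0.05 there were 6 among 390 tests of window sites and 16 to 518 sites per comparison over the genome. Positive against Negative in HP had 2 of 21 window sites, beside 71 of 11712 over the genome. ES to HB had 1 of 32, beside 518 of 17953, and HE1 to HE2 1 of 33, beside 123 of 24121. ES to HP had 1 of 32, beside 364 of 15457, and high against low in HE2 1 of 26, beside 61 of 14890. These counts were not tested against each other. The lowest unadjusted p among window sites was that of Il9r between ES and HP, 0 against 1.44 ± 1.84 per 10000 (SD). Its limma p was 0.0197 and its adjusted p 0.990 over all sites. Single sites rest on few fragments per set, and a site that was not called is not shown to be without a difference.

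Sorted and plasmid fragments were set side by side by their ends. Per the study's methods, sorted fragments were kept only where the plasmid libraries held the same fragment. A high share is thus set by that filter and is no check of the link. Of the distinct sorted fragments, 83.8% in the alpha-globin, 88.7% in the beta-globin and 80.4% in the Klf1 window had a plasmid fragment with the same ends, against 80.5% of all sorted fragments. Why the other sorted fragments had no match was not tested. The reverse share, of plasmid fragments seen in sorted cells, was small. In the pSKB lists the windows held 3437, 261 and 5638 distinct fragments, of which 8.20%, 9.58% and 8.19% were seen in any sorted library. Recovered pSKB fragments had a median of 6, 6 and 5 reads and those not recovered 2 in each window. About as many window fragments as elsewhere were seen in a single library only, 56.7%, 50.0% and 53.2% beside 56.1% of all. The HM-1 controls, which carry no reporter, held 1, 7 and 1 fragments in the alpha-globin window, 3, 10 and 1 in the Klf1 window and none in the beta-globin window. Of the sorted fragments, 1 in the alpha-globin and 3 in the Klf1 window had the same ends as a control fragment. The methods also name a filter against these controls, and why such fragments remain was not tested.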

How the data were processed

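Per the labels and the study's methods, reads were trimmed with Trim Galore, aligned to mm10 (GRCm38) with Bowtie2, handled with SAMtools and bedtools and annotated with HOMER, with no versions named in the labels. The authors dropped reads of low mapping quality and duplicates, filtered sorted fragments against HM-1 controls, plasmid fragments and accessible regions, and called fragments over 1.5 kb from a transcription start distal. Whether each stage was filtered on its own accessible regions was not given in these sources, so a 0 at a stage cannot be told apart from such a filter. The deposited sorted lists hold fragment positions only, and the deposited plasmid and HM-1 lists also hold a read count per fragment, after PCR without molecular identifiers. Identity of a sorted and a plasmid fragment was read after shifting plasmid starts by 1 base, since the lists count positions differently.

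Overlapping fragments of 1 class were merged over all sorted libraries into sites. Window rates were compared by exact two-sided permutation tests over 5 replicates (252 splits, smallest p 0.00794), with Benjamini-Hochberg adjustment over the 5 comparisons of a window and kind. Sites and genes with a fragment in at least 4 sets were fitted with limma 3.58.1 (R 4.3.3) on log2(rate + 1), which understates changes of low values, and tested on simulated data. Other work used Python 3.11.15, pandas 2.3.3, SciPy 1.17.1 and pysam 0.24.0. Named sites were all those over or within 1 kb of a member gene, in Nprl3, or within 30 kb upstream of Hbb-y, and the 5 sites of each window seen in most sets. A site of the Klf1 window that the rule names is not reported here. Members and lists were chosen with earlier results of these data known. The labels do not say that replicates came from separate cultures, so p-values measure the spread between these samples. Equal replicate numbers were taken to pair samples where the deviations of all 5 pairs correlated above 0.1, which held for positive against Negative sets in ES, HB and HE2 and for ES against HB. Alternatives were the window width, fragment class, plasmid identity, HM-1 fragments, library size, scaling, the value added before the log, the replicate block and leaving out each replicate.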

Additional observations from a re-analysis of the deposited data

Results flagged for a closer look

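Of 60 groups of 5 window rates (per 10000 fragments), 15 held a replicate whose gap to its nearest neighbour was large for the range of the group, where chance flags about 1 in 20 groups of independent, normally distributed values. These rates are not such values. In 2 of the groups 4 values were 0, so that any fragment in the remaining replicate is flagged, and positive sets contain the high and low sets, so the 15 cannot be read against that share. Most lay in the shallow replicates 3 to 5, where 1 fragment can make a rate. In the Klf1 window these were ES high replicate 5 at 0, HE2 low replicate 4 at 35.0, HE2 Negative replicate 5 at 36.0, HE2 positive replicate 4 at 24.5 and HP high replicate 3 at 19.6. In the alpha-globin window they were HB high replicate 5 at 20.1, HE1 low replicate 5 at 0 and HE2 positive replicate 4 at 12.3. In the beta-globin window they were ES high replicate 4 at 2.41, ES positive replicate 4 at 1.94, HB low replicate 1 at 0.281, HE1 Negative replicate 1 at 0.687, HE2 high replicate 4 at 8.08, HE2 positive replicate 4 at 4.09 and HP Negative replicate 5 at 12.2.

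The alpha-globin difference between positive and Negative sets itself differed between stages, in a test added after the data had been seen. It went from -2.70 in ES to 4.44 in HB, a change of 7.14 (exact permutation adjusted p = 0.0397), and from there to -2.17 in HE1, a change of -6.61 (exact permutation adjusted p = 0.0397). This test did not keep the replicate number as a block, with which 5 pairs cannot give an exact p below 0.0625. The change to HE1 was not worked out without the 4 HE1 libraries that share many fragments. The ES value rests on replicate 5, with 0 in the positive set and 11.3 in the Negative set (1 fragment of 882). Without replicate 5 the ES mean was -0.54, the HB mean 2.84 and the change 3.39 (exact permutation adjusted p = 0.143). The change from HB to HE1 was -5.56 without replicate 5 and -5.26 without replicate 4 (exact permutation adjusted p = 0.143 and 0.0952). Neither change passed with any replicate left out, where 4 against 4 cannot give a p below 0.0286. In the deep replicates 1 and 2 the difference was positive at both stages, 1.84 and 0.95 in ES and 1.22 and 1.87 in HB, and pooled ES fragments gave 5.49 in positive and 5.04 in Negative sets.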

How the results depend on the processing

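The 4 window differences that passed are given in the order alpha-globin HB positive minus Negative, alpha-globin ES to HB, alpha-globin HB to HE1 and Klf1 HP high minus low, and each value below no longer passed. Distal fragments alone gave 2.3, 2.83, -1.95 and 11.6, and promoter fragments alone 5.44, 5.33, -5.59 and 4.69. With 50 kb on each side the values were 0.459, 0.160, 0.0410 and -0.327, the last 2 with the other sign. The mean over libraries gave 3.29, 3.34, -3.95 and 6.30, and libraries of at least 1000 fragments 2.28, 2.24, -2.11 and 3.44. With the replicate block the values stayed at 4.44, 4.40, -4.43 and 6.66, and 5 pairs cannot give an exact p below 0.0625. Adjusted over all 45 comparisons, an alternative chosen after seeing the data, the same 4.44, 4.40, -4.43 and 6.66 had adjusted exact permutation p of 0.119, 0.119, 0.179 and 0.119. Fragments identical to a plasmid fragment gave 4.96 for the first, -3.89 for the third and 9.05 for the Klf1 difference. The first was 4.50 without HM-1 fragments and 4.59 with High and Medium/High gates only, and the Klf1 difference was 8.01 without the Medium gate. Without the Snrnp25 promoter, also chosen after seeing the data, ES to HB was 2.24 and HB to HE1 -1.93, while the first kept its call at 2.77. Leaving out 1 replicate gave 2.84 to 5.24, 2.80 to 5.45, -5.54 to -2.83 and 3.42 to 8.25, where 4 against 4 cannot give an exact permutation p below 0.0286. In all, 13 of 69 alternatives kept the call. This count includes outcomes fixed in advance. Only HB to HE1 uses HE1 libraries, so leaving out 4 of them could not alter the other differences. With the replicate block no difference could pass. The cause of the changed values was not tested.

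The other 41 comparisons were called under 0 of 669 alternatives, with the other sign in 66, and no window site was called under 215 limma alternatives. The share of fragments identical to a plasmid fragment was 3.16%, 1.61% and 3.38% in the alpha-globin, beta-globin and Klf1 windows with coordinates as deposited, and 95.9%, 100% and 97.6% with both ends within 5 bp. Genome-wide limma calls between ES and HB ranged from 0 to 14 sites, the latter without replicate 5, beside 1 as reported, and gene calls between ES and HP from 0 to 12, beside 12. Promoter fragments gave no beta-globin value.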
